A study of Oryza sativa with 8 samples.

Results

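Open chromatin was mapped by ATAC-seq, an assay in which the Tn5 transposase cuts accessible DNA and tags the cut ends for sequencing. The comparison was between 93-11, an indica rice, and Nipponbare (Nip), a japonica rice, both unheated. All peaks of the 4 Normal lists, 2 from 93-11 and 2 from Nip, were taken where the list placed them on chromosome 1 to 12. This gave 123157 peaks, 62216 from 93-11 and 60941 from Nip, out of 246695 peaks in the 8 lists of the series. Both groups were 3-week-old seedlings of unmodified cultivars, grown in nutrient solution with 10 h of light and 14 h of dark, and nuclei came from whole aerial parts, so each list pools all cell types of the shoot. The study's methods call the 2 libraries of a group biological replicates. The other 4 lists, from seedlings of the same cultivars after 36 h at 45 °C (HS), were used here only to set chromosome length.

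A plant chromosome is not equally open along its length. Genes and their promoters, where most accessible sites lie, are denser on the arms, while the region around the centromere is rich in transposable elements and is packed as heterochromatin. Indica and japonica are the main subspecies of Asian rice, and their genomes differ by insertions of transposable elements and by gene presence as well as by single bases. Each cultivar's peaks lay on its own assembly, so a position in one cannot be set against the same position in the other. The comparison was therefore one of distributions: how many peaks there were per Mb, how wide they were, how far apart, and in which part of a chromosome they lay. The lists name no genes, so neither genes nor markers of the sampled tissue could be examined.

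In outline, the complete lists of 93-11 and Nip seedlings had nearly the same number of peaks per Mb, but 93-11 had fewer of the stronger peaks and of those found in both replicates. The peaks of 93-11 were narrower and weaker over their background, and they were spread more evenly from chromosome ends to centres. The even spread was that of the weak peaks: among the strongest peaks the order turned round, and 93-11 was the more depleted in mid-chromosome. Peaks of like fold over background were close in width between the cultivars.

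The 93-11 lists held 31584 and 30632 peaks on the 12 chromosomes, against 31399 and 29542 in the Nip lists. Chromosome length, taken as the largest peak end in any of a cultivar's 4 lists, summed to 387.8 Mb in 93-11 and 372.9 Mb in Nip. The 93-11 chromosome was the longer on 11 of 12, by up to 2.98 Mb on chromosome 11, and chromosome 12 was the exception with a difference of -1.56 Mb. Peak density was 80.2 ± 1.74 peaks per Mb in 93-11 and 81.7 ± 3.52 peaks per Mb in Nip (SD, n = 2 lists each), and the lists of the cultivars overlapped (log2 ratio of 93-11 to Nip -0.027, exact two-sided permutation test over 6 assignments, p = 0.667). Without Nip replicate 1 the log2 ratio was 0.018, so the sign rested on that list. The densities were less close among reproducible or stronger peaks. Peaks found in both replicates averaged 50.2 per Mb in 93-11 and 62.7 per Mb in Nip (log2 ratio -0.32), and with a floor of 4 times the background the means were 29.7 per Mb in 93-11 and 54.5 per Mb in Nip (-0.87). In both settings the 93-11 lists lay below the Nip lists, with an exact permutation p = 0.33 at the floor of 4 times the background. Among peaks found in both replicates, the 2 values of a cultivar count the same shared regions from either side. Their separation there does not measure spread between replicates.

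With 2 lists against 2, the exact test cannot give a p-value below 0.33. In what follows a measure is called separated when both 93-11 lists lay on the same side of both Nip lists, which gives that smallest p-value. Of 11 measures compared, 9 were separated, each with p = 0.33 (exact permutation test) and an adjusted p of 0.407 after Benjamini-Hochberg adjustment over the 11. No difference between the cultivars was therefore significant, and each is given beside the SD between replicates. For the share found in the other replicate, both values of a cultivar come from the same overlap, so its p-value and SD do not measure replicate spread.

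Read counts are not in the lists, so depth is unknown, and a background rate was recovered in its place. It is the number of fragments expected by chance over a base, read from the p-values that recur most often in a list, and it follows depth times fragment length. The rate was 6.11 and 6.67 in the 93-11 lists and 5.31 and 5.21 in the Nip lists. The fold of a peak over this rate had a median of 3.54 ± 0.0765 in 93-11 and 5.0 ± 0.0360 in Nip (SD, n = 2). Peaks of at least 4 times the background made up 37.0 ± 1.14% of a 93-11 list and 66.7 ± 1.39% of a Nip list (SD, n = 2), and those at or over 10 times the background 2.90 ± 0.221% of a 93-11 list and 14.0 ± 0.217% of a Nip list (SD, n = 2). The background was thus higher and the peaks weaker over it in 93-11, with no overlap between the lists. Cultivar, assembly and library background cannot be told apart in this design.

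The single highest −log10 p went the other way. It was 8033 and 8535 in the 93-11 lists, from the same peak on chromosome 11 in both replicates, against 710.0 and 661.8 in the Nip lists, from a peak on chromosome 10. Only 3 peaks in each 93-11 list and 0 in each Nip list reached a −log10 p of 1000.

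Peak density varied between chromosomes in much the same way in both cultivars. Chromosome 3 was the densest in both, with 96.9 peaks per Mb in 93-11 and 99.5 peaks per Mb in Nip as means of 2 lists. Chromosome 11 was the sparsest, with 59.4 peaks per Mb in 93-11 and 61.2 peaks per Mb in Nip. The rank of a chromosome was the same in both cultivars for 9 of 12, and the largest shift was that of chromosome 4, which ranked 5 in 93-11 and 9 in Nip. Over the 12 chromosomes, Pearson's r between a 93-11 and a Nip list was 0.950 to 0.985, against 0.990 between the 93-11 lists and 0.995 between the Nip lists. These points share libraries and are given as a description.

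**Figure D1:**
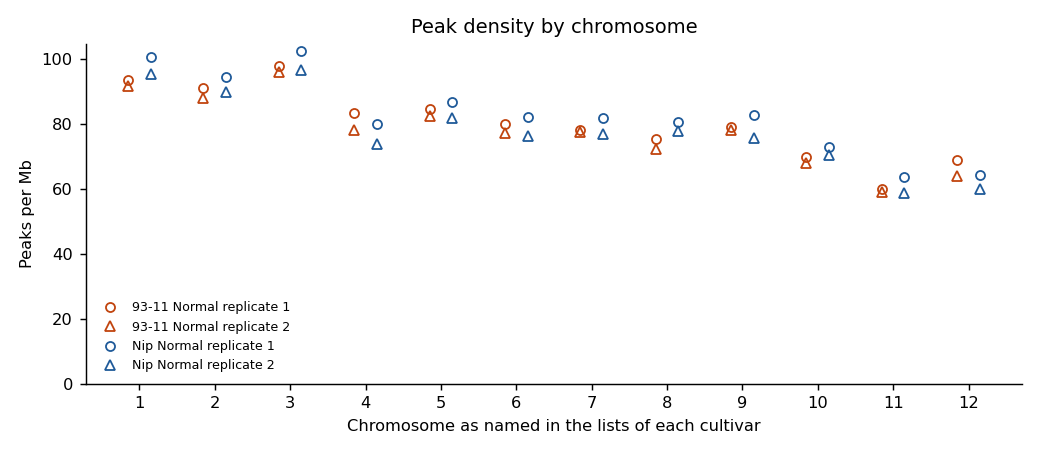
Peaks per Mb (y axis) on each of the 12 chromosomes (x axis) in the 2 93-11 Normal lists (left of each pair, orange) and the 2 Nip Normal lists (right, blue), circles for replicate 1 and triangles for replicate 2. Both cultivars were densest on chromosome 3 and sparsest on chromosome 11, and 93-11 lay below Nip with no overlap on chromosomes 1, 8 and 10.

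Counted as peaks per Mb, both 93-11 lists lay above both Nip lists on 0 of 12 chromosomes (0%) and below them on 3 of 12 (25%), chromosomes 1, 8 and 10. These counts depended on single lists. With 1 list left out there is less to overlap, and 93-11 was lower without overlap on 5 chromosomes and higher on 0 without 93-11 replicate 1, lower on 3 and higher on 2 without 93-11 replicate 2, lower on 3 and higher on 7 without Nip replicate 1, and lower on 10 and higher on 0 without Nip replicate 2. Divided by the density of its own list, which removes the small difference in total number, 93-11 was higher on 3 of 12 (25%), chromosomes 4, 5 and 12, and lower on 5 of 12 (41.7%), chromosomes 1, 2, 3, 8 and 10. These shares are over all chromosomes, so they are also the background for the chromosomes named next. Chromosome 12 stood highest in 93-11 relative to Nip. It had 68.8 and 63.9 peaks per Mb in 93-11, against 64.1 and 59.9 in Nip, and its relative density was 0.845 and 0.809 in 93-11, against 0.762 and 0.756 in Nip (log2 ratio 0.12). Chromosome 4 came next, with 83.4 and 78.1 peaks per Mb in 93-11, against 80.0 and 73.7 in Nip (relative log2 ratio 0.099), and then chromosome 9, where the relative values overlapped (log2 ratio 0.015).

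At the other end, chromosome 8 had 75.3 and 72.1 peaks per Mb in 93-11, against 80.5 and 77.7 in Nip (relative log2 ratio -0.076). Chromosome 1, with 93.4 and 91.5 peaks per Mb in 93-11, against 100.5 and 95.5 in Nip, had a relative log2 ratio of -0.058, and chromosome 10 one of -0.031. All of these ratios are small. Chromosomes 4, 8 and 10 kept their sign in all the alternatives run, among them stricter thresholds, peaks found in both replicates and leaving out each list. On chromosomes 1 and 12 the sign turned among peaks of at least 4 times the background (log2 ratio 0.031 on chromosome 1 and -0.028 on chromosome 12).

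Position along the chromosome was examined in 10 segments of equal length, segment 1 at the start and segment 10 at the end of the sequence. With the 12 chromosomes pooled, both cultivars were dense at the ends and sparse in the middle. In 93-11 the density was 83.4 peaks per Mb in segment 1, 62.3 in segment 5, the sparsest, and 97.4 in segment 10, the densest. In Nip it was 87.8 peaks per Mb in segment 1, 57.6 in segment 4, the sparsest, and 107 in segment 10, the densest (means of 2 lists). The densest segment exceeded the sparsest 1.57 ± 0.0658 times in 93-11 and 1.87 ± 0.0901 times in Nip (SD, n = 2, log2 ratio -0.25, exact permutation p = 0.33). The 4 outer segments (1, 2, 9 and 10), which would hold 40% of evenly spread peaks, held 43.9% and 44.8% of the peaks in the 93-11 lists, against 46.2% and 46.6% in the Nip lists (log2 ratio -0.064, exact permutation p = 0.33). The gradient from centre to ends was therefore shallower in 93-11 in every pairing of the lists.

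The gradient turned round with peak strength. Taking the 10000 strongest peaks of a list, 93-11 had 14.3 peaks per Mb in segment 5 and 38.7 in segment 10, while Nip had 18.1 in segment 5 and 37.6 in segment 10. The log2 ratio of the outer share was then 0.058, and that of the range across segments 0.29. Among peaks of at least 4 times the background the same ratios were 0.049 and 0.21. With the 20000 strongest peaks they did not turn, at -0.022 and -0.14, nor among peaks found in both replicates, at -0.011 and -0.048. In the settings that kept only the stronger peaks, the outer share was thus larger in 93-11 than in Nip. The complete lists and these wider settings showed the opposite. At the start of the sequence the 10000 strongest peaks were not denser in 93-11. Segment 1 had 28.6 peaks per Mb in 93-11 and 28.7 in Nip, and segment 2 had 26.7 and 28.4. In segment 9 the densities were 36.8 in 93-11 and 35.8 in Nip.

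**Figure D2:**
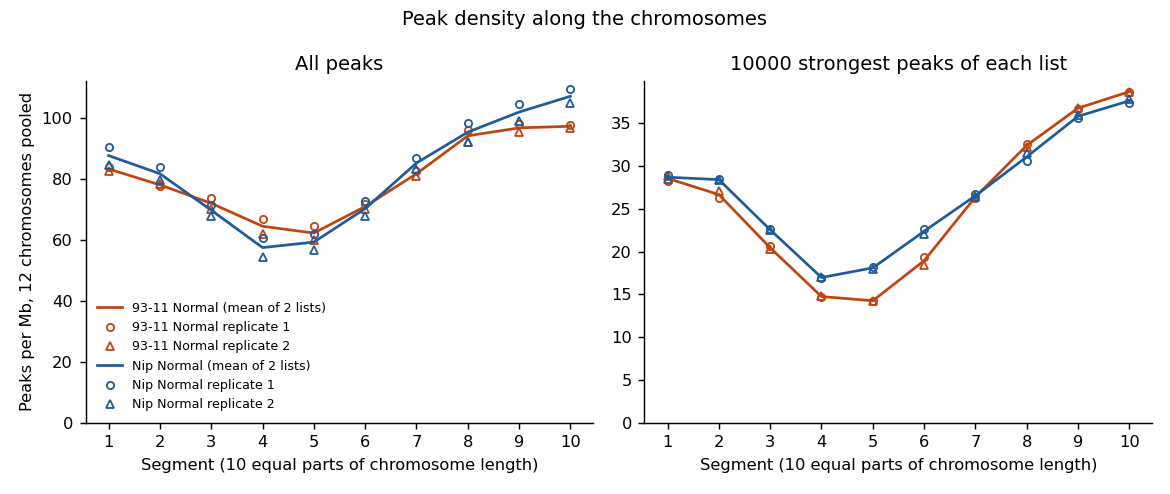
Peaks per Mb (y axis, from 0) in each of 10 equal segments of chromosome length (x axis), 12 chromosomes pooled, for all peaks (left) and the 10000 strongest peaks of each list (right). Lines are means of the 2 lists of 93-11 Normal (orange) and Nip Normal (blue), and symbols are single lists. With all peaks 93-11 was higher than Nip in segment 4 and lower in segment 10, and with the strongest peaks it was lower in segments 3 to 6.

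Dividing each list into 5 equal strength bins by −log10 p gave the outer share at each strength. In bin 1, the weakest, the outer segments held 37.5 ± 0.542% of the peaks in 93-11 and 39.9 ± 1.09% in Nip (SD, n = 2), at or just below the 40% of an even spread. In bin 2 the shares were 39.1 ± 1.25% in 93-11 and 46.0 ± 0.372% in Nip (SD, n = 2). In bin 4 they were 49.0 ± 0.666% in 93-11 and 48.2 ± 0.409% in Nip, and in bin 5, the strongest, 51.4 ± 0.452% in 93-11 and 48.8 ± 0.103% in Nip (SD, n = 2). In 93-11 the outer share thus climbed through all 5 bins, whereas in Nip it levelled off from bin 3 onwards, at 49.1%, 48.2% and 48.8%.

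**Figure D3:**
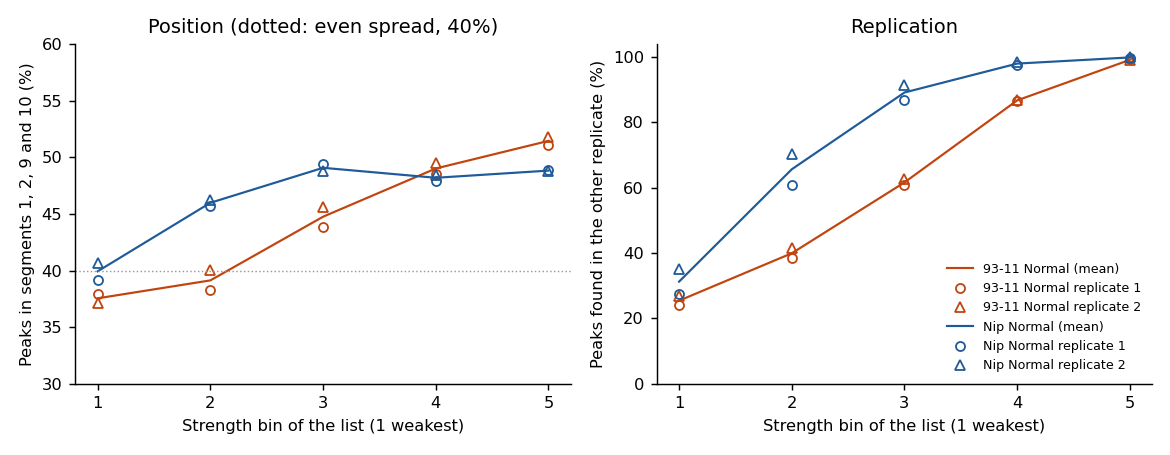
Share of peaks in the outer segments 1, 2, 9 and 10 (left, y axis in %, not from 0) and share found in the other replicate (right, y axis in %) by strength bin, 5 equal parts of a list from weakest to strongest (x axis). Lines are means of 93-11 Normal (orange) and Nip Normal (blue), symbols are the 2 lists, and the dotted line marks an even spread at 40%. The outer share of 93-11 runs below that of Nip in bins 1 to 3 and above it in bins 4 and 5, and the share found is lower in 93-11 in each bin.

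Below 6 times the background, peaks of like fold had a similar outer share in the cultivars, and above it they did not. For peaks under 3 times the background the outer segments held 37.4 ± 0.160% in 93-11 and 37.6 ± 1.22% in Nip, and for peaks of 4 to 6 times 49.6 ± 1.05% in 93-11 and 48.8 ± 0.371% in Nip (SD, n = 2). The lists of the cultivars overlapped in both classes, and in that between them. From 6 to 10 times the background the shares were 51.6 ± 0.190% in 93-11 and 48.3 ± 0.00452% in Nip, and from 10 times upwards 52.0 ± 0.161% in 93-11 and 49.0 ± 0.0556% in Nip (SD, n = 2), with no overlap in either. The number of peaks in each class differed by more, since those under 3 times the background were 26.4 ± 3.6% of the peaks in 93-11 and 9.01 ± 0.584% in Nip (SD, n = 2).

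Split by chromosome, the same positions gave 120 segments. Relative to the density of its own list, both 93-11 lists were higher than both Nip lists in 42 of 120 segments (35%) and lower in 51 of 120 (42.5%), and the lists overlapped in 27. Of the 42 higher segments, 35 lay in the inner segments 3 to 8 and 7 in the outer ones. Of the 51 lower segments, 33 lay in the outer segments and 18 in the inner ones. Of all 120 segments, 72 are inner and 48 outer. Segment 10 was lower in 93-11 on 12 of 12 chromosomes, and segment 4 was higher on 10 of 12. Among the 10000 strongest peaks, segment 10 was lower in 93-11 on 1 chromosome and higher on 7, and segment 4 was higher on 0 and lower on 7. Of the 42 higher segments, 6 were still higher, 18 were lower and 18 overlapped among the 10000 strongest peaks, while of the 51 lower segments 22 were still lower, 20 were higher and 9 overlapped. At 4 or more times the background 10 of the 42 and 19 of the 51 kept their side, and 17 of each took the opposite side. More kept it with the 20000 strongest peaks, 30 of the 42 and 30 of the 51, with 4 and 2 opposite. Among peaks found in both replicates 35 of the 42 and 42 of the 51 kept it, with 6 and 7 opposite.

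**Figure D4:**
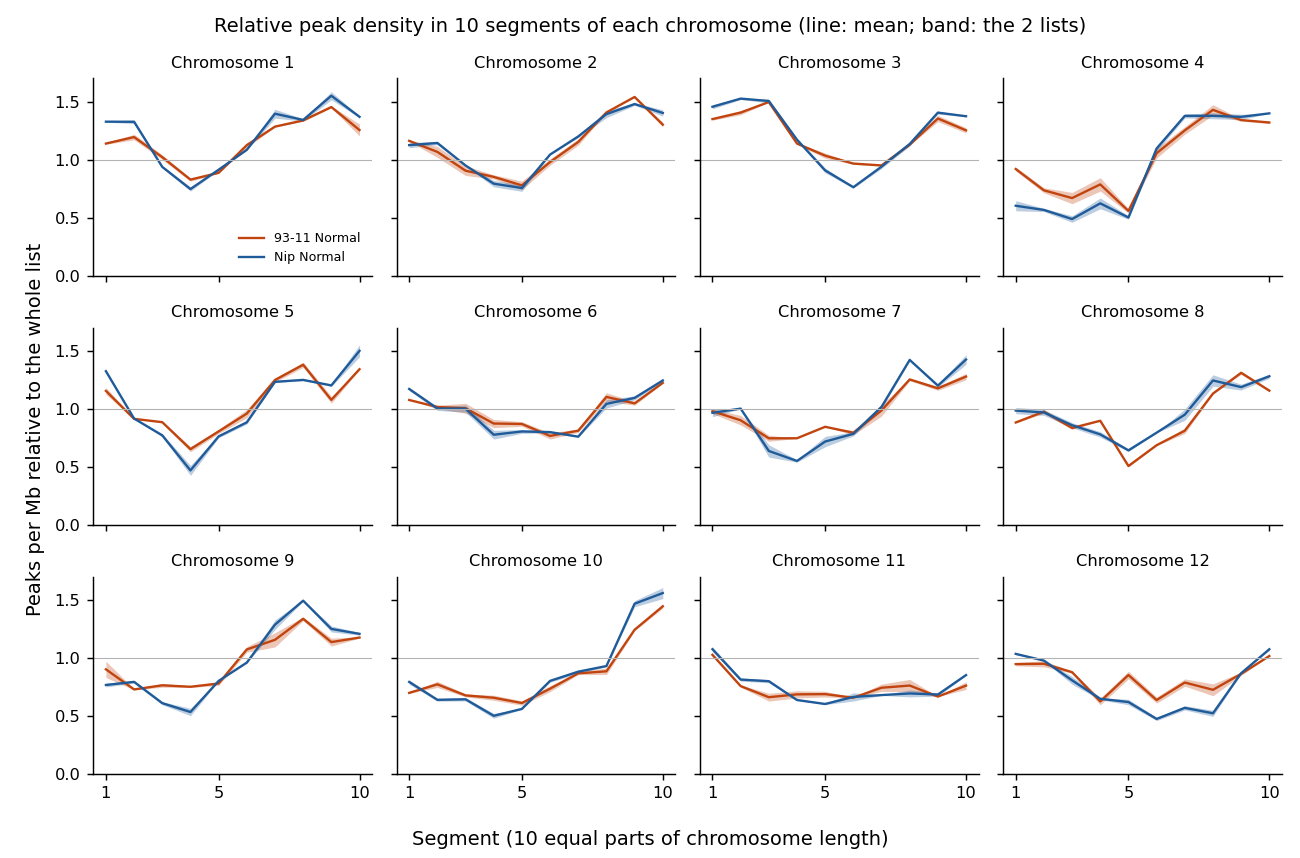
Peaks per Mb relative to the whole list (y axis, 1 is the density of the list) in each segment (x axis) of the 12 chromosomes, for 93-11 Normal (orange) and Nip Normal (blue), with the mean as a line and the range of the 2 lists as a band. The profiles have a similar course on most chromosomes. Runs where they part include the first 5 segments of chromosome 4 and segments 5 to 8 of chromosome 12, where 93-11 is higher. In segments 5 to 8 of chromosome 8 it is lower. They also part in single segments elsewhere, such as segment 6 of chromosome 3 (0.966 in 93-11, 0.763 in Nip) and segment 4 of chromosome 7 (0.746 in 93-11, 0.550 in Nip).

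The shape of each chromosome was shared to a large degree. Over the 120 segments Pearson's r was 0.926 to 0.949 between a 93-11 and a Nip list, against 0.980 between the 93-11 lists and 0.991 between the Nip lists (a description over segments, which share libraries). On 12 of 12 chromosomes the segments of the cultivars correlated better in the same order than with one reversed, so the sequences run in the same direction by this measure. It hardly told the orders apart on chromosome 6, with r = 0.949 in the same order and 0.864 reversed. On chromosomes 3 and 12 the reversed order still gave 0.532 and 0.590, against 0.960 and 0.870. The densest segment had the same number in both cultivars on 8 of 12 chromosomes. The sparsest segment had the same number on 4 of 12, on chromosomes 1, 2, 5 and 8, and differed by 1 on 5 of 12.

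The sparsest segment lay farther apart on 3 chromosomes. On chromosome 4 it was segment 5 in 93-11, with 44.8 peaks per Mb, and segment 3 in Nip, with 39.97. On chromosome 9 it was segment 2 in 93-11, with 58.3 peaks per Mb, and segment 4 in Nip, with 43.6. On chromosome 12 it was segment 4 in 93-11, with 50.1 peaks per Mb, and segment 6 in Nip, with 38.7. In each of these the sparsest segment of 93-11 was the less sparse. Chromosome 8 was the reverse, with 40.6 peaks per Mb in segment 5 of 93-11 and 52.5 in segment 5 of Nip. Across chromosomes the sparsest segment ranged between 40.6 and 76.2 peaks per Mb in 93-11 and between 38.4 and 62.3 in Nip.

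Chromosome 4 held the largest difference of any separated segment. Its short arm is known from cytology as one of the most heterochromatic arms of rice. No centromere positions were used here, so the segments below are parts of chromosome length and do not mark out that arm. In segment 1 the density was 76.3 and 71.3 peaks per Mb in 93-11, against 54.4 and 44.3 in Nip (relative log2 ratio 0.61). All 5 segments of its first part were higher in 93-11, with 61.7 and 56.1 peaks per Mb over segments 1 to 5, against 48.4 and 42.7 in Nip (relative log2 ratio 0.40). Over segments 6 to 10 the values were 105 and 100.2 peaks per Mb in 93-11, against 112 and 105 in Nip (relative log2 ratio -0.049). Among peaks of at least 4 times the background the relative log2 ratio over segments 1 to 5 was -0.051, so the difference over these segments did not hold among the stronger peaks, though in segment 1 the ratio was 0.33. Chromosome 10 also has a heterochromatic short arm. Its first 5 segments, again not the arm itself, had 55.0 and 54.4 peaks per Mb in 93-11, against 52.1 and 50.3 in Nip (relative log2 ratio 0.12). Among peaks of at least 4 times the background the ratio was -0.37.

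Other segments with a higher relative density in 93-11 lay in mid-chromosome. Segment 4 of chromosome 9 had 60.6 and 59.8 peaks per Mb in 93-11, against 47.6 and 39.7 in Nip (relative log2 ratio 0.49). With a floor of 4 times the background the ratio there was 0.18, with the 10000 strongest peaks it was 0.040, and in both settings the lists of the cultivars overlapped. Segment 4 of chromosome 5 had 54.9 and 49.7 peaks per Mb in 93-11, against 43.1 and 33.7 in Nip (0.48), though -0.29 among peaks of at least 4 times the background. On chromosome 12, the only one shorter in 93-11, segments 7 and 8 had relative log2 ratios of 0.47 each. Segments 5 to 8 of that chromosome together had 63.9 and 56.4 peaks per Mb in 93-11, against 46.7 and 42.5 in Nip (relative log2 ratio 0.46). Among peaks of at least 6 times the background the ratio over these segments was -0.28, with -0.50 in segment 7 and 0.50 in segment 8.

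The segments with a lower relative density in 93-11 were led by chromosome 8, and here the difference grew with strength. Segment 5 of chromosome 8 had 42.0 and 39.3 peaks per Mb in 93-11, against 55.0 and 49.9 in Nip (relative log2 ratio -0.34). Among the 10000 strongest peaks it held 19 and 19 in 93-11, against 39 and 41 in Nip (-1.09). At 6 or more times the background it held 7 and 6 peaks in 93-11, against 44 and 45 in Nip, and its relative log2 ratio was -1.31. Segment 7 of the same chromosome was lower in 93-11 as well, at 68.0 and 62.2 peaks per Mb against 75.8 and 79.0 in Nip (-0.23).

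Segment 3 of chromosome 11 had 51.1 and 54.8 peaks per Mb in 93-11, against 66.1 and 64.3 in Nip (-0.27), and -0.65 among the 10000 strongest peaks. Segment 9 of chromosome 10 had 101.8 and 97.5 peaks per Mb in 93-11, against 121 and 118 in Nip (-0.24). Segment 1 of chromosome 1 had 92.2 and 90.5 peaks per Mb in 93-11, against 111 and 106 in Nip (-0.22), and 0.044 among the 10000 strongest peaks. Of the 10 segments named for the size of their difference, the sign held and the difference was larger among the 10000 strongest peaks in 3: chromosome 8 segment 5, chromosome 11 segment 3 and chromosome 8 segment 7 (-0.42). The cause of the differences was not tested.

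Peaks were narrower in 93-11. The median width was 263 and 272 bp in the 93-11 lists, against 346 and 355 bp in the Nip lists (log2 ratio -0.39, exact permutation p = 0.33). The shift ran through the distribution, from the 5th percentile, at 138.5 ± 2.12 bp in 93-11 and 166.5 ± 3.54 bp in Nip, to the 95th, at 702.5 ± 21.9 bp in 93-11 and 878 ± 4.24 bp in Nip (SD, n = 2). Peaks under 200 bp were 30.2 ± 1.48% of the peaks in 93-11 and 15.1 ± 1.13% in Nip. Peaks of 1 kb or more were 0.842% and 1.06% of the 93-11 lists, against 2.96% and 3.08% of the Nip lists (log2 ratio -1.67, exact permutation p = 0.33). Peaks covered 2.59% and 2.61% of chromosome length in the 93-11 lists, against 3.45% and 3.31% in the Nip lists (log2 ratio -0.38, exact permutation p = 0.33).

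Width went with strength and with the floor of each list. The narrowest peak was 128 and 130 bp in the 93-11 lists, against 150 and 154 bp in the Nip lists, and the shortest gap was 131 and 133 bp in 93-11, against 153 and 157 bp in Nip. With a common floor of 160 bp for both, chosen after the lists were seen, the median width was 302.5 bp in 93-11 and 358 bp in Nip (log2 ratio -0.24). Among peaks of at least 6 times the background it was 498 bp in 93-11 and 503 bp in Nip (-0.014), and the lists overlapped. Class by class, the median width for peaks of 3 to 4 times the background was 249.5 ± 12.0 bp in 93-11 and 257.5 ± 3.54 bp in Nip (SD, n = 2). For peaks of 4 to 6 times it was 344 ± 15.6 bp in 93-11 and 336.5 ± 4.95 bp in Nip, and for peaks of 10 or more times 588 ± 12.7 bp in 93-11 and 588 ± 1.41 bp in Nip (SD, n = 2). The lists met or overlapped in these 3 classes. They did not in the other classes, where 93-11 was the narrower below 3 times the background, at 186.5 ± 6.36 bp against 204 ± 4.24 bp in Nip, and the wider from 6 to 10 times, at 472 ± 18.4 bp against 450.25 ± 7.42 bp in Nip (SD, n = 2).

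**Figure D5:**
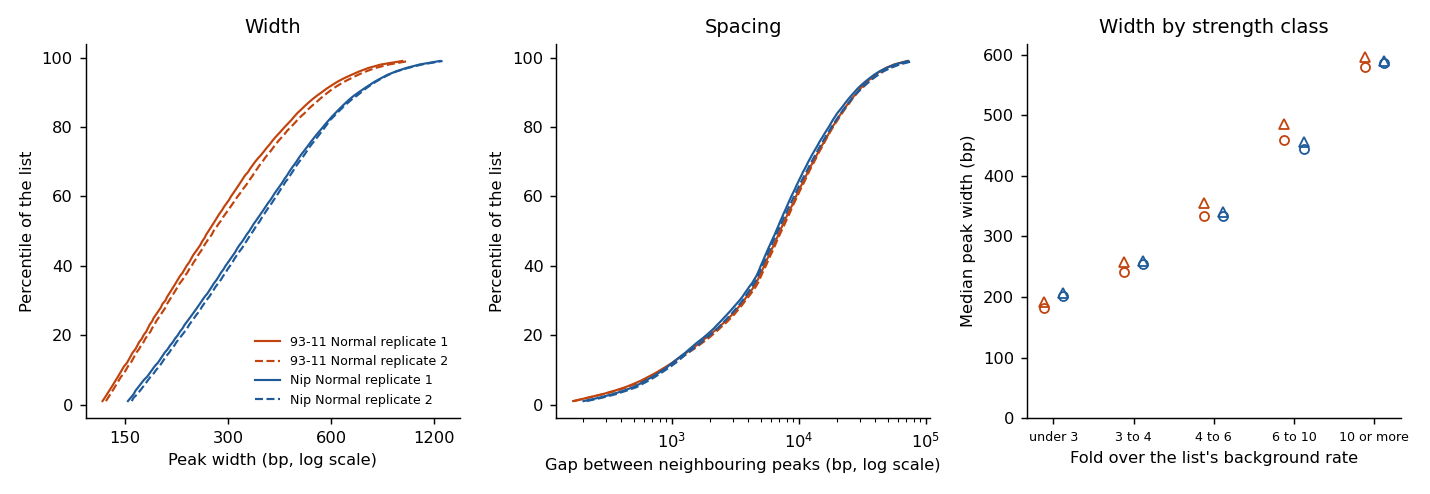
Percentile curves of peak width (left, bp, log scale) and of the gap between neighbouring peaks (middle, bp, log scale), percentile of the list on the y axis, and median width in bp (right, y axis from 0) by fold over the background rate of the list. Orange is 93-11 Normal and blue is Nip Normal, with solid lines and circles for replicate 1 and dashed lines and triangles for replicate 2. The width curves of 93-11 lie left of those of Nip throughout, the gap curves nearly coincide, and the medians by fold class lie close together.

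The widest peaks seen in both replicates were shorter in 93-11. Positions are given on the sequences that each cultivar's own lists name, counted from 1, with no genome build stated. In 93-11 the 3 widest were 2414 bp on chromosome 3 (23879386 to 23881799), 2338 bp on chromosome 9 (11483084 to 11485421) and 2064 bp on chromosome 1 (25022897 to 25024960). In Nip they were 3073 bp on chromosome 1 (25870311 to 25873383), 2738 bp on chromosome 12 (11362602 to 11365339) and 2643 bp on chromosome 9 (15611755 to 15614397). In the other replicate the widest peak was 2354 bp in 93-11 and 2779 bp in Nip. Of these 6 peaks, 3 were met by more than 1 peak in the other replicate, so their widths rested on 1 list. The longest such peak was 1010 bp of 2 for chromosome 1 of 93-11, 1600 bp of 2 for chromosome 12 of Nip and 798 bp of 3 for chromosome 9 of Nip.

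Along the chromosomes, median width and strength were higher in the outer than in the inner segments in both cultivars, but did not rise alike towards each end. In Nip the median width was 345 bp in segment 1, 344.5 bp in segment 6, 367.5 bp in segment 8 and 359 bp in segment 10. In 93-11 it was 272.5 bp in segment 1, 252.5 bp in segment 6, 280.5 bp in segment 8 and 283 bp in segment 10 (means of 2 lists). The median width in the outer segments against the inner segments was 271 and 258 bp in 93-11 replicate 1 and 283 and 265 bp in replicate 2. In Nip it was 353.5 and 338 bp in replicate 1 and 357 and 353 bp in replicate 2. The median strength, as a percentile within the list, was 10.5 and 9.84 points higher in the outer than in the inner segments in the 93-11 lists, against 4.64 and 3.61 points in the Nip lists. The step in strength between inner and outer segments was thus larger in both 93-11 lists than in either Nip list. The ratio of outer to inner median width was 1.06 in 93-11 and 1.03 in Nip, and at 4 or more times the background 0.998 in 93-11 and 0.999 in Nip.

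In the complete lists spacing differed less than width. The median gap between neighbouring peaks was 7090 and 7275 bp in the 93-11 lists, against 6611 and 6824 bp in the Nip lists (log2 ratio 0.097, exact permutation p = 0.33), but among the 10000 strongest peaks the log2 ratio was -0.057. In the stricter settings, where fewer 93-11 peaks remained, spacing differed more than width. The log2 ratio of the median gap was 0.34 among peaks found in both replicates, 0.81 with a floor of 4 times the background and 1.52 with a floor of 6 times, beside width ratios of -0.29, -0.11 and -0.014 in the same settings. Gaps under 1 kb were 12.0% and 11.8% of all gaps in 93-11, against 11.9% and 11.3% in Nip, and the lists overlapped (log2 ratio 0.035, exact permutation p = 0.667, and -0.0063 without Nip replicate 2). Clusters of at least 3 peaks with gaps under 1 kb numbered 417 and 377 in 93-11, against 369 and 301 in Nip, and the largest held 5 peaks in each of the 4 lists. These counts are of the complete lists, whose shortest gap was 131 and 133 bp in 93-11 and 153 and 157 bp in Nip. For the share of gaps under 1 kb the sign turned in 9 alternatives and held in 5. The log2 ratio was -0.23 with a common floor of 160 bp and -0.023 with peaks under 150 bp apart merged.

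Long gaps took up less of the 93-11 chromosomes. Gaps of 100 kb or more took 2.99% and 3.67% of chromosome length in the 93-11 lists, against 3.98% and 4.93% in the Nip lists (log2 ratio -0.42, exact permutation p = 0.33). The longest gap was 239 and 206 kb in the 93-11 lists, against 542 and 374 kb in the Nip lists. Windows of 100 kb without a peak were 0.852% of all windows in each 93-11 list, against 1.21% and 1.29% in the Nip lists. The coefficient of variation of peaks per 100-kb window, a measure of unevenness, was 0.489 ± 0.0104 in 93-11 and 0.520 ± 0.0172 in Nip (SD, n = 2, log2 ratio -0.088, exact permutation p = 0.33). Here too the order turned with strength. Among peaks of at least 4 times the background the log2 ratio was 1.32 for the share in long gaps and 0.35 for unevenness. Fewer peaks remained in 93-11 there, 29.7 per Mb against 54.5 in Nip. Both measures also depend on the number of peaks, and its part in the turn was not tested. With equal numbers of peaks the ratios were 0.16 and 0.12 for the 10000 strongest of each list. For the 20000 strongest they were -0.048 and -0.011, and the lists of the cultivars overlapped. The order also turned among peaks found in both replicates, at 0.53 for long gaps and 0.10 for unevenness. With the common floor of 160 bp the ratios were 0.17 and 0.0060. In both of these settings, too, fewer peaks per Mb were left in 93-11.

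Stretches with no peak in either complete list of a cultivar were fewer in 93-11. There were 36 of at least 100 kb in 93-11, 25 of them in segments 3 to 8, against 57 in Nip, 43 of them in segments 3 to 8. Their share of chromosome length was 1.19% in 93-11 and 1.98% in Nip. The longest in 93-11 spanned 200 kb on chromosome 6 (6461915 to 6661963), followed by 179 kb on chromosome 8 (12680857 to 12859440), in the segment 5 described above, and 178 kb on chromosome 1 (17744497 to 17922515). In Nip they spanned 274 kb on chromosome 12 (20431685 to 20705888), 257 kb on chromosome 6 (18272500 to 18529820) and 218 kb on chromosome 3 (13524207 to 13742488). A peak in 1 list alone can break such a stretch, and a smaller share of peaks recurred in 93-11 (means 62.6% in 93-11, 76.8% in Nip). Among peaks found in both replicates, gaps of 100 kb or more took up more of the 93-11 chromosomes (log2 ratio 0.53).

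Peaks were found again less often in 93-11. A peak overlapped by at least 1 bp in the other replicate made up 61.8% and 63.4% of the 93-11 lists, against 74.5% and 79.1% of the Nip lists (log2 ratio -0.30, exact permutation p = 0.33). Both values of a cultivar come from the same overlap between its 2 lists. Neither this p-value nor the SDs of the shares found again therefore measure spread between independent libraries. By base pairs, the part covered in both replicates was 0.407 of that covered in either for 93-11 and 0.556 for Nip. The share found again depended on strength in both cultivars, with 25.4 ± 1.83% in 93-11 and 31.3 ± 5.3% in Nip in the weakest bin and 99.2 ± 0.143% in 93-11 and 99.9 ± 0.0647% in Nip in the strongest (SD, n = 2). At equal fold the order of the means was the reverse: of peaks of 4 to 6 times the background 91.3 ± 0.765% were found again in 93-11 and 86.6 ± 3.00% in Nip, and of those under 3 times 27.5 ± 2.83% in 93-11 and 22.2 ± 3.70% in Nip (SD, n = 2). The lower share in 93-11 as a whole went with its larger share of weak peaks.

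By position, the share found again was higher in the outer than in the inner segments in each list. In 93-11 it was 67.1% in the outer and 57.6% in the inner segments of replicate 1, and 67.4% and 60.1% in replicate 2. In Nip it was 77.5% in the outer and 72.0% in the inner segments of replicate 1, and 81.6% and 76.8% in replicate 2. Mid-chromosome peaks were thus the less repeatable ones in each list. Kept to peaks found in both replicates, the log2 ratio of the outer share was -0.011, against -0.064 for all peaks.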

How the data were processed

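The authors deposited 1 narrow-peak list per library, with replicates not pooled, giving sequence, start, end, name and a value per peak. The study's methods name Cutadapt, Bowtie2, SAMtools, Picard and MACS2 at an adjusted p-value of 0.05, while the submitters' processing notes name BWA 0.7.10-r789, SAMtools 0.1.19, deepTools 2.0 and MACS2 2.1.1. Which aligner made these lists was not settled, and the genome builds are not given in the sources used here. The value deposited by the authors has no header and was read, from its values, as an unadjusted −log10 p. Depth is unknown. The background rate was the Poisson rate best matching the 12 most frequent values of a list, and only 26.3% to 31.0% of values lay on that tail. Fold over background understates peaks scored against a higher local background.

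Segments (10 equal parts of chromosome length), gaps (peak end to next peak start) and 100-kb windows were computed with Python 3.11.15, NumPy 2.4.6, pandas 2.3.3 and SciPy 1.17.1, and the calculations were checked on simulated lists. Groups were compared by an exact two-sided permutation test over 6 assignments. Chromosomes named are the 3 highest and 3 lowest by relative density, segments the 5 highest and 5 lowest among separated ones with at least 10 peaks in every list, plus the sparsest segment of each chromosome, and gaps and widest peaks the first 3 per cultivar. The members, measures and these rules were chosen with earlier results of these data known. The strongest peak of each list, the stretches of several segments and the counts by segment number were chosen after the values were seen.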

Additional observations from a re-analysis of the deposited data

Results flagged for a closer look

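Peaks outside the 12 chromosomes entered no comparison. They numbered 473 and 450 in the 93-11 Normal lists, against 270 and 268 in the Nip Normal lists. They made up 1.46 ± 0.0196% of a 93-11 list, on 73 and 77 sequences, and 0.876 ± 0.0329% of a Nip list, on 69 and 68 sequences (SD, n = 2). They are named here as signal in data that was set aside, and there is no control library against which to set their level. The number of such sequences that each assembly holds was not known here, so the counts were not put per Mb.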

How the results depend on the processing

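Covered share, median width, the share of peaks of 1 kb or more and the share found in the other replicate kept their sign, lower in 93-11, in every alternative that gave a value. Values here are log2 ratios of 93-11 to Nip unless named otherwise. With the 10000 strongest peaks of each list the sign turned for the median gap (-0.057), the range across segments (0.29), the share in gaps of 100 kb or more (0.16), gaps under 1 kb (-0.15), the outer share (0.058), unevenness (0.12), chromosome 1 (0.050), its segment 1 (0.044) and chromosome 12 (-0.026). With the 20000 strongest it turned for gaps under 1 kb (-0.097). At 4 or more times the background it turned for the range (0.21), long gaps (1.32), short gaps (-0.92), the outer share (0.049), unevenness (0.35), chromosome 1 (0.031), its segment 1 (0.055), chromosome 12 (-0.028), chromosome 5 segment 4 (-0.29) and chromosome 9 (-0.0015). At a −log10 p of 10 or more it turned for the range (0.27), long gaps (1.14), short gaps (-0.85), the outer share (0.061), unevenness (0.35), chromosome 1 (0.032), its segment 1 (0.013), chromosome 12 (-0.036), its segment 7 (-0.072) and chromosome 5 segment 4 (-0.18). The next 2 settings were chosen after seeing the data. At 6 or more times the background it turned for the range (0.33), long gaps (1.22), short gaps (-1.52), the outer share (0.090), unevenness (0.60), chromosome 12 (-0.18), its segment 7 (-0.50) and chromosome 9 (-0.051). With a common floor of 160 bp it turned for long gaps (0.17), short gaps (-0.23) and unevenness (0.0060). With peaks found in both replicates it turned for long gaps (0.53), short gaps (-0.18), unevenness (0.10) and chromosome 9 (-0.014), and with peaks under 150 bp apart merged for short gaps (-0.023). Thresholds on −log10 p or fold removed a larger share of the 93-11 peaks than of the Nip peaks, and the cause of the turns was not tested.

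The number of chromosomes lower in 93-11 by peaks per Mb without overlap, 3 as reported with 0 higher, was 8 with the 10000 strongest peaks and 9 with the 20000 strongest, each with 1 higher, and 12 at a −log10 p of 10, at 4 or 6 times the background, with the common floor and with peaks found in both replicates. The log2 ratio of the outer-to-inner width step, 0.042 as reported, was -0.019 with the 10000 strongest peaks, -0.0070 at a −log10 p of 10, -0.0011 at 4 times and -0.017 at 6 times the background. Leaving out 1 list gave -0.070 to 0.018 for peak number, -0.0063 to 0.078 for short gaps, -0.0039 to 0.034 for chromosome 9, 3 to 10 chromosomes lower in 93-11 and 0 to 7 higher, and turned the sign of no other log2 ratio.

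The replicate block, the mean of the log2 ratios within a replicate number, gave -0.026 for peak number, -0.38 for covered share and -0.39 for width, with p = 0.5 each by an exact sign-flip test, the smallest it can give, and turned no sign. The labels do not tie the numbers across cultivars. Deviations of same-numbered lists correlated at r = 0.15 over 120 segments, with only 2 pairs, so the lists were treated as sharing a number only.

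The strongest-peak settings fix the number of peaks, so they gave no value for peak number, and the share found in the other replicate could not be had without 1 list or from peaks found in both. Depth is unknown, so a difference in library background between the cultivars limits every comparison of complete lists.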
